A study of Sus scrofa domesticus with 4 samples.

Results

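Collagens, proteoglycans and stromal matrix proteins of the pig uterine muscle layer (myometrium) were followed through 10 listed genes, COL1A1, COL1A2, COL3A1, DCN, LUM, BGN, FN1, SPARC, TNC and CD34. Members were the array probes whose RefSeq mRNA identifier belongs to a listed pig gene. Probes of this kind were found for 6 of the 10 genes, 26 probes in all out of 43603 on the array, and the 6 genes stand among 3027 genes named in the same way. LUM had 9 probes, SPARC 7, DCN 4, CD34 3, TNC 2 and COL1A2 1. COL1A1, COL3A1, BGN and FN1 were not analysed here, since no probe met the rule.

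Orexin B is a peptide hormone, best known from the hypothalamus, and the series measured its action on myometrial gene expression around implantation. Tissue came from 4 crossbred Large White x Polish Landrace gilts, 7 to 8 months old, on days 15 to 16 of gestation. Slices 3 mm thick were preincubated for 2 h and then kept for 24 h either with orexin B at 10 nM or with no treatment, and every culture was prepared in duplicate, per the labels. Each of the 4 Agilent arrays carried both RNAs of a pair in 2 dyes, and is thus a comparison of its own. By the dye fields of the labels, orexin B RNA carried Cy5 (red) and untreated RNA Cy3 (green) on arrays 1 and 3, and the dyes were exchanged on arrays 2 and 4. The labels' protocol text describes the first orientation alone. For probes with a single spot on the array, the authors' deposited log2 ratios were compared with orexin B over untreated by the dye fields. They matched for 100% of these probes on every array, within 0.01. Ratios are given as log2 of treated over untreated signal, positive where the treated slices gave more signal, and ± gives limma's moderated standard error over 4 arrays. The labels number the 4 arrays as replicates without saying which animal each came from, and the p-values speak of the spread among those 4.

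Fibrillar collagen is the load-bearing fibre of connective tissue, and type I collagen is assembled from chains encoded by COL1A1 and COL1A2. Decorin (DCN) and lumican (LUM) are small leucine-rich proteoglycans that bind collagen fibrils and set their spacing, and their genes neighbour each other in the RefSeq table of the pig assembly Sscrofa11.1. SPARC and tenascin-C (TNC) are matricellular glycoproteins, which modulate contacts between cells and matrix rather than bear load. CD34 is a sialomucin of the surface of vascular endothelium and of some stromal fibroblasts. In the myometrium this matrix surrounds the smooth muscle bundles and is made largely by stromal cells and by the muscle cells themselves.

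Of the 26 member probes, 23 were well above background on all 4 arrays in both channels, and these were the probes tested. The remaining 3, of which 2 belong to CD34 and 1 to LUM, were too dim to test. Each of the 6 genes thus had at least 1 probe measured in every treated and untreated sample.

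The brightest probe of each of the 6 genes had a mean ratio below 0, from -0.13 for TNC to -0.51 for SPARC, with a median of -0.41 over the 6 genes against 0.017 over all 1978 genes tested, of which 46.3% had a mean below 0. Of the 23 tested probes, 21 had a mean below 0, where 45.9% of all tested probes did. After Benjamini-Hochberg adjustment of limma's p-values over 19881 probes, 0 of 23 passed the threshold of 0.05 (smallest adjusted p = 0.596), and 0% of all probes did. At an unadjusted p under 0.05 limma gave 5 of the 23 probes, all lower, where 7.72% of all tested probes passed, 3.41% lower and 4.31% higher; an unmoderated fit gave 2. The 5 were 3 probes of DCN and 1 each of LUM and SPARC. This count was 4, 2, 13 and 1 without replicate 1, 2, 3 and 4, in that order, and 0 when arrays were median centred instead of loess-normalized. Over all 19881 tested probes the limma counts were 1249, 1436, 1922 and 727 in the same order, and 177 with median centring. The unmoderated fit gave 1195 of all probes. In these tissue slices, fewer cells of a type and less RNA per cell cannot be told apart.

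**Figure D1:**
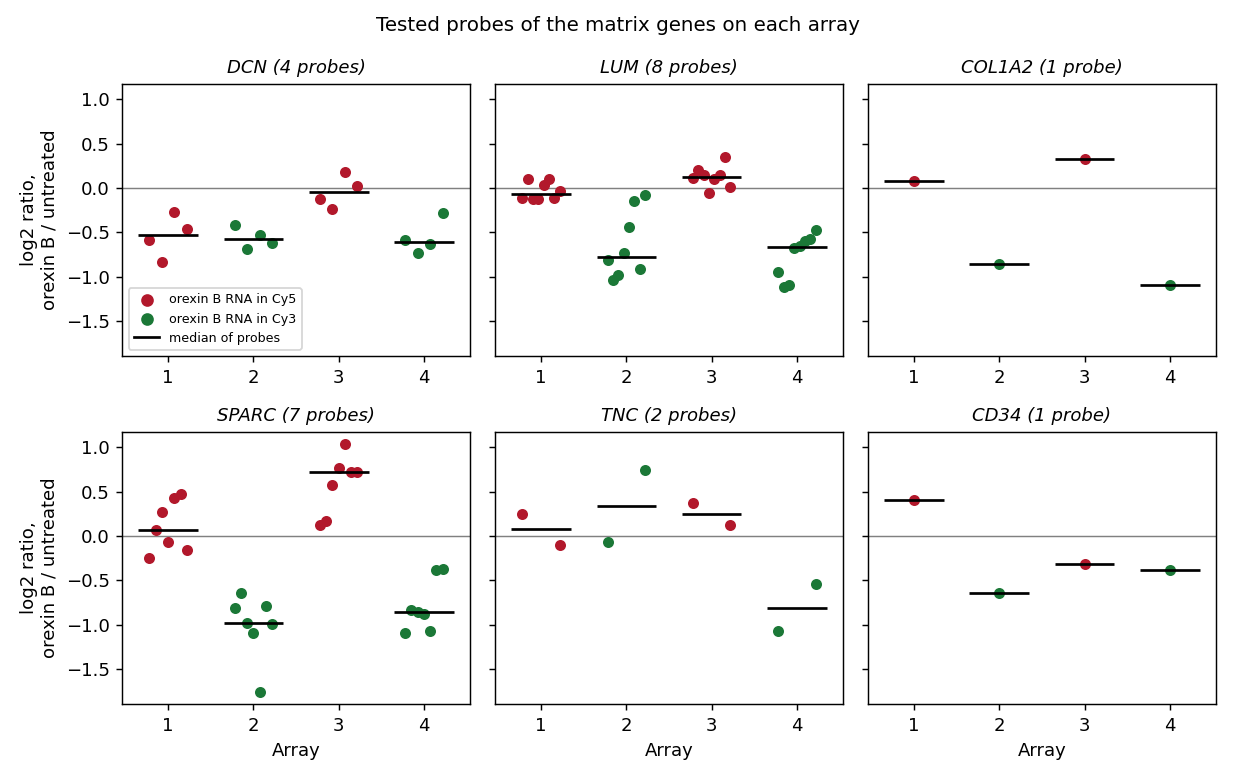
Log2 ratio of orexin B over untreated (vertical axis) of every tested probe of the 6 matrix genes on arrays 1 to 4 (horizontal axis); points are probes, black bars their median on that array, and colour gives the dye of the orexin B RNA. DCN medians lie below 0 on every array, from -0.61 to -0.049, while SPARC medians are 0.07 (array 1), -0.98 (array 2), 0.72 (array 3) and -0.86 (array 4).

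COL1A2, the second chain of type I collagen, was measured by a single probe (A_72_P107881). Its log2 ratio was 0.08, -0.86, 0.32 and -1.10 on arrays 1 to 4. It was thus near or above 0 where orexin B RNA was in Cy5 and low where it was in Cy3, and the 2 orientations did not overlap. The mean was -0.39 ± 0.25, with a 95% interval from -0.98 to 0.20 (adjusted p = 0.750). Within the treated channel its log2 level after scaling between arrays was 14.15, 13.01, 14.59 and 13.41, against 14.07, 13.87, 14.27 and 14.50 in the untreated channel. The untreated levels spanned a narrower range than the treated ones. The mean was -0.23 without replicate 2, -0.62 without replicate 3 and -0.15 without replicate 4.

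Decorin, which binds collagen fibrils, was the member with the lowest ratio on array 1. Its brightest probe (A_72_P596994) had ratios of -0.59, -0.42, -0.12 and -0.58 on arrays 1 to 4, all below 0. Its mean was -0.43 ± 0.13, which is 1.34-fold lower, with a 95% interval from -0.73 to -0.12 (adjusted p = 0.596). The second probe (A_72_P178111) had ratios of -0.83, -0.69, -0.23 and -0.73 and a mean of -0.62 ± 0.14, or 1.54-fold lower (interval from -0.94 to -0.30, adjusted p = 0.596). The 2 dimmer probes had means of -0.31 ± 0.16 and -0.34 ± 0.14, and each was slightly above 0 on array 3, at 0.18 and 0.02. All 4 probes had their highest ratio on array 3. For the brightest probe the treated level was 15.31, 15.41, 15.70 and 15.09 on the scaled log2 axis and the untreated level 15.89, 15.83, 15.82 and 15.67, so the 2 channels overlapped only through array 3 treated and array 4 untreated. Leaving out 1 array moved the mean of the brightest probe between -0.53 and -0.37. Among the members 3 of 23 probes were below 0 on all 4 arrays, 2 of DCN and 1 of LUM, where 7.08% of all tested probes were. Above 0 on all 4 arrays were 0 of 23, where 8.92% of all tested probes were.

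Lumican was measured by 8 tested probes, all with a mean below 0, from -0.51 to -0.12. The brightest (A_72_P769870) had ratios of -0.12, -0.81, 0.11 and -0.95 and a mean of -0.44 ± 0.20 (interval from -0.91 to 0.03, adjusted p = 0.655). The medians over the 8 probes were -0.07, -0.77, 0.13 and -0.66 on arrays 1 to 4. Single probes ran from -0.12 to 0.10 on array 1 and from -0.056 to 0.35 on array 3. They ran from -1.04 to -0.08 on array 2 and from -1.11 to -0.47 on array 4. Every LUM probe was lower on both arrays with orexin B in Cy3 than on both with it in Cy5. The 4 brightest probes had means of -0.44, -0.46, -0.51 and -0.40, and the 4 dimmer ones -0.24, -0.12, -0.31 and -0.14. Without replicate 3 the brightest probe was at -0.63 and without replicate 4 at -0.27. Lumican and decorin, neighbours in gene order and members of the same protein family, thus differed on array 1, where the medians of their probes were -0.07 and -0.53.

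SPARC, a collagen-binding glycoprotein, differed most between arrays of the members by the median of its probes. Its brightest probe (A_72_P444699) had ratios of -0.25, -0.81, 0.13 and -1.10, with a mean of -0.51 ± 0.21, or 1.42-fold lower (interval from -0.999 to -0.013, adjusted p = 0.641). The medians over 7 probes were 0.07, -0.98, 0.72 and -0.86. All 7 probes were above 0 on array 3, from 0.13 to 1.04, and below 0 on arrays 2 and 4, from -1.76 to -0.64 and from -1.10 to -0.37. Of the 7, 6 had a mean below 0 and 1 a mean of 0.0044. The fifth probe in brightness (A_72_P639642) went from 1.04 on array 3 to -1.76 on array 2. The brightest probe was at -0.72 without replicate 3 and at -0.31 without replicate 4.

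Tenascin-C, which is low in most resting adult tissue and rises in remodelling, had a log2 ratio of 0.25, -0.065, 0.38 and -1.07 for its brighter probe (A_72_P035426) and of -0.10, 0.75, 0.12 and -0.54 for the other. The 2 probes differed in sign on arrays 1 and 2 and were both below 0 on array 4. Their means were -0.13 ± 0.24 (interval from -0.69 to 0.44, adjusted p = 0.917) and 0.06 ± 0.20 (interval from -0.43 to 0.54, adjusted p = 0.961). Without replicate 4 the brighter probe had a mean of 0.19.

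The level of TNC set array 1 apart from the other 3, in both channels. After quantile scaling of the mean intensity of the 2 channels between arrays, the brighter probe was at a log2 level of 11.33 on array 1 and at 13.66, 13.80 and 13.56 on arrays 2 to 4. The treated level on array 1 was 11.46 and the untreated level 11.20, while on the other arrays treated levels ran from 13.03 to 13.99 and untreated levels from 13.61 to 14.10. The second probe was lowest on the same array, at 9.10 against 10.67, 10.55 and 10.12. For the brighter probe, array 1 minus the median of the other arrays was -2.34 on the log2 scale, and -2.78 with no scaling between arrays, an alternative chosen after seeing the data. Of 19881 tested probes, 9 lay at least as far below, including this one. Array 1 was alone on its slide and arrays 2, 3 and 4 shared another, and the labels do not tie arrays to gilts, so animal, slide and scan cannot be told apart for this difference.

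**Figure D2:**
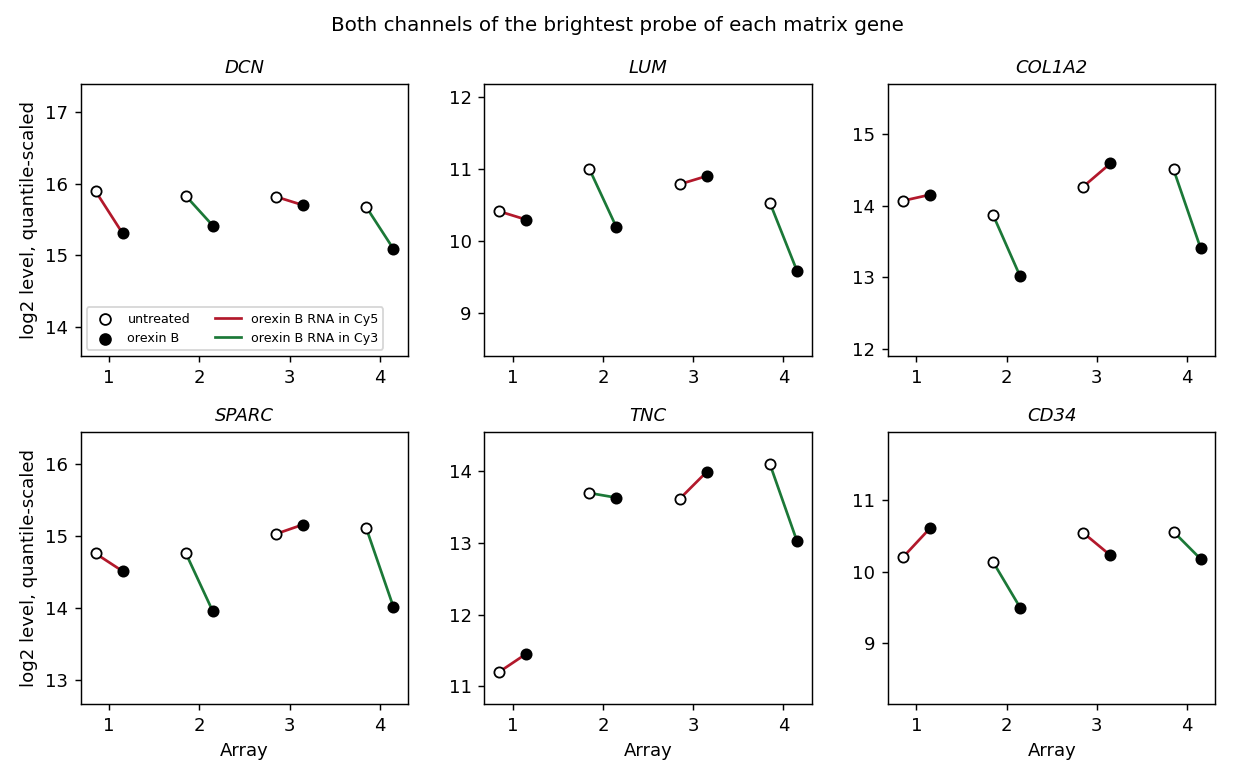
Log2 level after quantile scaling between arrays (vertical axis) of the brightest probe of each gene in untreated (open) and orexin B (filled) RNA on arrays 1 to 4 (horizontal axis); lines join the 2 channels of an array and their colour gives the dye of the orexin B RNA. Every panel spans the same height; levels are not comparable between genes. TNC is at 11.20 and 11.46 on array 1 and between 13.03 and 14.10 elsewhere.

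CD34 was tested through its brightest probe (A_72_P088366), with ratios of 0.41, -0.64, -0.31 and -0.38 on arrays 1 to 4. It was above 0 on array 1 alone. The mean was -0.23 ± 0.18 (interval from -0.66 to 0.19, adjusted p = 0.786), and it was -0.44 without replicate 1 and -0.096 without replicate 2. Of its dimmer probes, 1 was well above background on 3 arrays in each channel, with ratios of 0.07, -0.24, 0.20 and -0.01. The other reached it on 0 arrays in the treated channel and on 1 in the untreated channel.

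The members' ratios split by dye orientation. With orexin B in Cy5 the median over the 6 genes was 0.02, and with orexin B in Cy3 it was -0.73. Of the 23 probes, 19 had both arrays of the first orientation above both of the second, where 23.3% of all tested probes did, and 0 had the reverse. The 4 probes whose orientations overlapped were 3 of DCN and 1 of TNC. Of the 23 probes, 22 were below 0 on both arrays 2 and 4, where 28.7% of all tested probes were, and 3 on both arrays 1 and 3, where 26.2% were. The difference itself was tested as a dye term beside the treatment in limma: 15 of 23 probes had an unadjusted p under 0.05, all higher with orexin B in Cy5, where 12.5% of all tested probes passed and 5.83% in that direction. None of the 23 passed after adjustment over all probes (0, smallest adjusted p = 0.235), and 0% of all probes did. Without replicate 3 the unadjusted count was 8. With median centring all 23 probes passed it, and the 2 medians were 0.77 and -1.66. The share of all probes at these settings is not given, so neither count can be read as a result about the members.

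Gene by gene, the first orientation minus the second gave 1.18 ± 0.23 for COL1A2, 0.88 ± 0.22 for the brightest probe of LUM, 0.90 ± 0.25 for that of SPARC and 0.88 ± 0.35 for that of TNC. It was 0.55 ± 0.30 for CD34 and 0.15 ± 0.25 for the brightest probe of DCN. Over all probes of a gene the difference ran from 0.86 to 2.15 for SPARC, from 0.26 to 1.23 for LUM and from 0.15 to 0.53 for DCN. The ranges of SPARC and DCN did not overlap; probes of 1 gene share their samples and are not replicates, and the difference between the genes was not tested.

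With the dye term in the model, 11 of 23 probes had an unadjusted p under 0.05, where 12.0% of all tested probes did. After adjustment 0 of 23 and 0% of all probes passed (limma). Each orientation holds 2 arrays, so a dye effect and a difference between the tissues on those arrays cannot be told apart. On the slide that arrays 2, 3 and 4 shared, the median over the 6 genes was -0.49. Over 3 arrays that include array 1 of the other slide, it was -0.27 without replicate 2, -0.58 without replicate 3 and -0.23 without replicate 4.

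**Figure D3:**
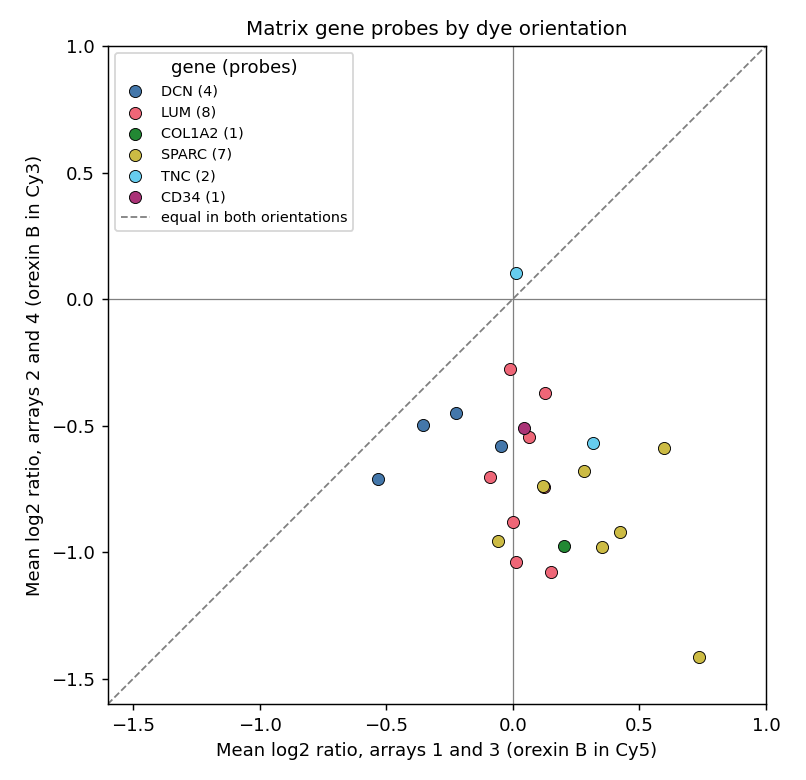
Mean log2 ratio of orexin B over untreated with orexin B RNA in Cy3 (vertical axis, arrays 2 and 4) against that with it in Cy5 (horizontal axis, arrays 1 and 3) for the 23 tested probes; colours give genes and the dashed line marks equal values. All but 1 TNC probe lie below the line, and a SPARC probe, at 0.73 and -1.41, lies farthest from it.

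Probes of the same gene differed less than arrays did. For SPARC the SD between its 7 probes on an array averaged 0.32, and the SD between arrays of the probe median was 0.81. For LUM these values were 0.21 and 0.44 over 8 probes, and for DCN 0.18 and 0.26 over 4. The gap between the spreads was widest for SPARC and narrowest for DCN. For TNC the 2 probes had an average SD of 0.35, against 0.53 between arrays.

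The other genes of the matrix were taken from lists, of which few members could be measured. Of 26 other collagen chains, 3 were tested, all of type V collagen, which seeds the fibrils of type I, and all had means above 0. COL5A1 had 0.23 ± 0.16, COL5A2 0.14 ± 0.12 and COL5A3 0.0037 ± 0.12. COL1A2 had -0.39, and its difference from the type V chains was not tested. All 3 chains had both arrays with orexin B in Cy5 above both others, where 27.6% of all genes did. COL5A3 was dim, and well above background on 3 arrays in untreated RNA. COL5A2 was at -0.030 with the mean of all its probes, and COL5A3 at -0.041 with median centring. Of 23 genes of collagen processing and cross-linking, 4 were tested, 2 above and 2 below 0. P4HA1, a subunit of the prolyl hydroxylase, had -0.18 ± 0.12, FKBP10, a collagen chaperone, -0.21 ± 0.15, and SERPINH1, the collagen chaperone HSP47, 0.19 ± 0.14. None of the 7 passed an unadjusted p of 0.05 in limma, where 10.5% of all genes did.

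Among 26 other proteoglycans, 3 were tested, and 0 passed an unadjusted p of 0.05 in limma, where 10.5% of all genes did. Asporin (ASPN), a relative of decorin, had 0.32 ± 0.16, and 1.36 on Agilent's processed ratios. It was well above background on 4 arrays in treated RNA but on 2 in untreated RNA. It was thus tested through the treated channel alone, and its ratio is that of a dim probe. Versican (VCAN), the large hyaluronan-binding proteoglycan, had -0.44 ± 0.42 and rested on array 4, at -2.27 against 0.16, -0.16 and 0.53 elsewhere; it was 0.18 without replicate 4. The cell-surface proteoglycan SDC4 had 0.09 ± 0.12.

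Of 41 other matrix glycoproteins, 10 were tested, 8 below 0, with a median of -0.24 and 4 at an unadjusted p under 0.05 in limma, 3 lower and 1 higher, where 4.25% of all genes were lower and 6.27% higher. Matrix Gla protein (MGP), an inhibitor of calcification, had ratios of -0.64, -2.19, -0.01 and -3.04 on arrays 1 to 4 and a mean of -1.47 ± 0.46 (adjusted p = 0.596). It was below 0 on all arrays and lowest on arrays 2 and 4, where orexin B was in Cy3. Tenascin-X (TNXB), which organises collagen fibrils, had -0.49 ± 0.18 and fibrillin-1 (FBN1), the core of elastic microfibrils, -0.31 ± 0.12. Of the 10 tested, 9 were well above background in every channel. The other, with a mean below 0, passed the filter through untreated RNA alone. This list's median was -0.31 when both channels had to pass on all 4 arrays. It moved to -0.39 on Agilent's processed ratios, and to -0.076 when all probes of a gene were averaged.

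Of 22 matrix receptors, 6 were tested, 5 above 0, with a median of 0.12 and 1 at an unadjusted p under 0.05 in limma. It was ITGA2, the collagen-binding integrin chain, at 0.33 ± 0.13 and above 0 on all 4 arrays. ITGB8 had 0.34 ± 0.16 and ITGB5 0.15 ± 0.20, or -0.059 without replicate 4. Of 19 genes of the TGF-beta pathway, a main inducer of collagen, 9 were tested, 8 above 0, with a median of 0.09 and 0 at an unadjusted p under 0.05 in limma. TGFB1 had 0.16 ± 0.14 and TGFB3 -0.65 ± 0.49. In each of these lists 0 genes passed an adjusted p of 0.05 in limma. Over all genes tested, 46.3% had a mean below 0, 10.5% passed an unadjusted p of 0.05 in limma, and 0 passed after adjustment.

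Markers of other cell types were read on the same arrays. All 9 tested smooth muscle genes had a mean below 0, with a median of -0.49 and medians of 0.0035, -1.13, 0.16 and -1.21 on arrays 1 to 4, where the matrix genes had -0.016, -0.72, 0.12 and -1.01. Summed over the 9 genes, which were all well above background in every channel, the level ran from 398021 to 828412 intensity units in treated RNA and from 657763 to 1124429 in untreated RNA. CNN1 (calponin) had -0.61 ± 0.26, MYLK, the myosin light chain kinase, -0.65 ± 0.28 and SMTN (smoothelin) -0.51 ± 0.26. Of the 9, 0 passed an unadjusted p of 0.05 in limma, where 10.5% of all genes did. The sum over the 6 matrix genes ran from 70025 to 143243 in treated and from 91034 to 138779 in untreated RNA. The part of the muscle genes in the matrix values was not tested. Of the 12 further fibroblast markers only CXCL12 was tested, at -0.36 ± 0.18, and 1 of the 3 on the array was never above background.

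Endothelium markers, the other compartment that carries CD34, had means above 0 for 4 of 5 tested genes, with a median of 0.31 and medians of 0.44, 0.06, 0.04 and 0.21 on arrays 1 to 4. CLDN5 had 0.45 ± 0.15, CDH5 0.31 ± 0.12 and PECAM1 0.32 ± 0.14, and 2 of the 5 passed an unadjusted p of 0.05 in limma, both higher, where 6.27% of all genes were. CD34 was at -0.23. The summed level of the 5 ran from 9673 to 20260 in treated and from 7262 to 15786 in untreated RNA. Macrophage markers were above 0 for 9 of 9, with a median of 0.60. Array by array their median was 0.69, 0.18, 0.86 and 0.76. AIF1 had 0.63 ± 0.14, C1QB 0.98 ± 0.24 and FCER1G 0.51 ± 0.15, and 8 of the 9 had an unadjusted p under 0.05 in limma, all higher, where 6.27% of all genes were, with 0 past adjustment. Only 8 of the 9 were well above background in every channel. The other passed the filter through treated RNA alone, where it was higher, and is itself among those past an unadjusted p of 0.05 in limma. The summed level of the 9 ran from 7745 to 17738 in treated and from 4726 to 10636 in untreated RNA. The 3 tested epithelium markers, CLDN3 (-0.53 ± 0.41), KRT8 (-0.26 ± 0.34) and EPCAM (-0.40 ± 0.54), were lowest on array 3, where the matrix genes were highest, and were all above 0 without replicate 3. KRT8 was well above background on 3 arrays in untreated RNA, and its mean was 0.18 on Agilent's processed ratios. The summed level of the 3 epithelium markers ran from 798 to 3464 in treated and from 1094 to 4492 in untreated RNA. WT1, the single mesothelium marker tested, had 0.19 ± 0.14. The part of these cells in the matrix values was not tested.

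**Figure D4:**
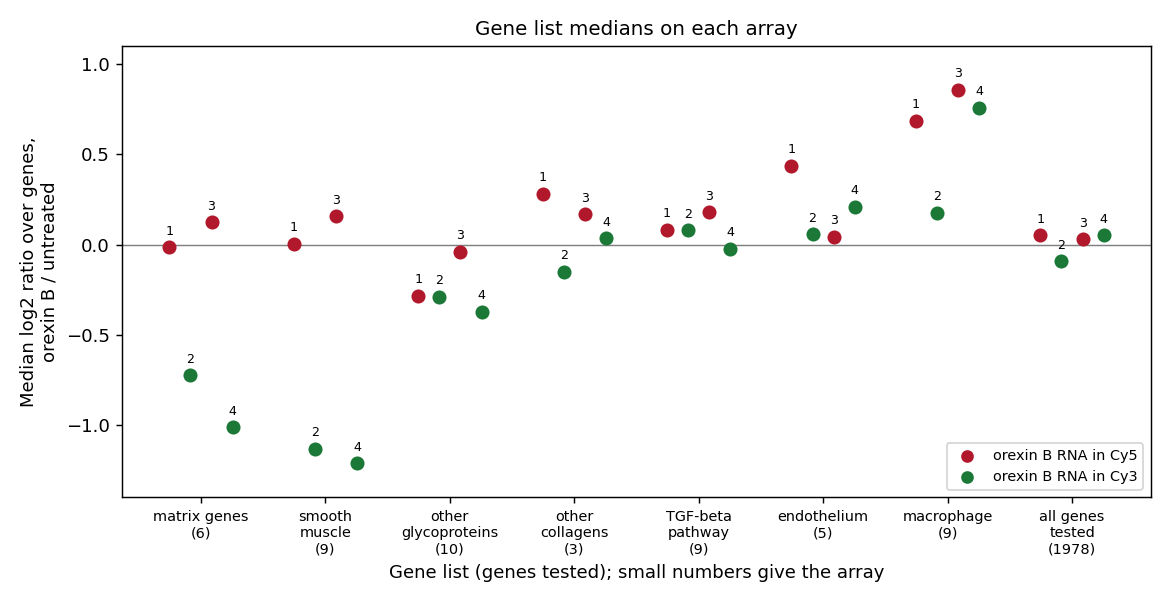
Median log2 ratio of orexin B over untreated (vertical axis) on each array for the matrix genes and 7 further gene lists (horizontal axis, number of tested genes in brackets); small numbers give the array and colour the dye of the orexin B RNA. The matrix genes (-0.72 and -1.01) and smooth muscle genes (-1.13 and -1.21) are low on arrays 2 and 4, while all genes tested stay between -0.094 and 0.05.

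The genes whose 4 ratios lay nearest to the array medians of the matrix members were ENTPD1, TPM1, PGLYRP2, RAB22A and RARRES2, by root-mean-square distance on the log2 scale over 4 arrays. ENTPD1, an ecto-enzyme that breaks down extracellular ATP, was at a distance of 0.06, with ratios of 0.03, -0.83, 0.16 and -0.98. TPM1, a tropomyosin that is also among the smooth muscle markers above, was at 0.15, PGLYRP2 at 0.16, the small GTPase RAB22A at 0.16 and the chemoattractant RARRES2 at 0.17. Among the members, whose own values set those medians, LUM lay at 0.07, SPARC at 0.13 and COL1A2 at 0.14, and TNC, DCN and CD34 at 0.38, 0.41 and 0.44.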

How the data were processed

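The authors' deposited scanner files hold spot intensity, the median brightness of each spot and its local background in Cy3 and Cy5, as read by Feature Extraction (Agilent, version 10.7.3.1, per the file headers). They also hold a processed log10 ratio per the file headers, and the authors' deposited series table holds log2 ratios with no further centring (column medians -0.27, -0.08, -0.20 and -0.09). The files name no genome build, so no coordinates are given; only gene order was read from the RefSeq table of Sscrofa11.1. Between 37.6% and 58.2% of probes were well above background in a channel, no probe was saturated, and precision is limited by there being 4 arrays.

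Background was corrected with normexp (offset 50), which draws ratios of dim spots towards 0, and loess, fitted with control spots weighted 0, was applied within arrays (R 4.3.3, limma 3.58.1). Spots marked as outliers (31 to 138 per array) were left out and spots of a probe averaged. Probes were tested when well above background on all 4 arrays in 1 channel, with an unmarked spot on at least 3 (19881 of 43603). The ratios were fitted to an intercept with limma's lmFit and eBayes (3 residual and 4.10 prior degrees of freedom), with Benjamini-Hochberg adjustment across every tested probe. Intervals are 95% and pointwise. RefSeq identifiers matched a gene symbol for 6697 of 7033 such probes. Where 1 probe stands for a gene, it is the tested probe with the highest mean intensity.

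All members were named. From each further list the 3 tested genes with the smallest p were named, and the 5 genes nearest to the members' array medians; 1 gene that the rule named is not reported here. The members and lists were chosen with earlier results of these data known. The fit was tested on simulated data with known treatment changes. The dye term was run on the same simulated data, which held no dye effect, so its recovery of such an effect was not tested. Levels between arrays were scaled with limma's Aquantile. Figures used Python 3.11.15 and matplotlib 3.10.9.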

Additional observations from a re-analysis of the deposited data

Results flagged for a closer look

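Of 96 sets of 4 array values, 4 had a sample far from the other 3, where chance gives about 1 in 20, or 4.8. TNC had a brighter-probe log2 level of 11.33 on array 1 against 13.56 to 13.80 on the others. CD34 had a log2 level of 9.82 on array 2 against 10.37 to 10.40 on the others. TNXB had a log2 ratio of 0.16 on array 1, while arrays 2 to 4 were between -0.78 and -0.67. The median ratio over all genes tested was -0.094 on array 2, and from 0.03 to 0.05 on the others.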

How the results depend on the processing

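No member or other probe passed an adjusted p under any alternative (limma, 0 of all probes tested; unmoderated fit 0 past adjustment and 1195 at an unadjusted p under 0.05). Over all results, 861 values were counted as the same, 31 as moved and 58 as turned in sign. A single gene that kept its sign was counted as the same even where its size changed. On Agilent's processed ratios ASPN went from 0.32 to 1.36 and FBN1 from -0.31 to -0.74, and both count as the same. Most of the 58 came from reading ratios as Cy5 over Cy3, which by construction reverses the arrays with orexin B in Cy3. The cause of the other changes was not tested. Probes at an unadjusted p under 0.05 numbered 177 with median centring, 2302 with no filter, 4280 with slide as a random block (correlation -0.26), 2382 with a dye term and 727 to 1922 leaving out 1 array. Member probes numbered 0 with centring, 2 in the unmoderated fit, 14 with the slide block, 11 with a dye term and 1 to 13 leaving out 1 array. On Agilent's processed ratios 2 member probes passed, beside 1597 of all probes. On the authors' deposited log2 ratios 2 also passed, beside 1586. All member probes in these counts were lower. Read as Cy5 over Cy3, 10 member probes passed, all higher, beside 1655 of all probes. With centring 5 of the 177 were lower (2.82%, against 44.2%). The dye term count of member probes was 23 with centring and 8 to 14 leaving out 1 array. No share of all probes stands beside these counts, so they cannot be read as a result about the members. The member median ran from -0.58 to -0.23 leaving out 1 array and 5 to 6 genes were below 0. The median with orexin B in Cy5 was 0.77 with centring and -0.016 to 0.12 leaving out 1 array, and with orexin B in Cy3 it was -1.66 and -1.01 to -0.72.

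Read as Cy5 over Cy3, which mixes the 2 directions, 0 member genes were below 0, the member median was 0.44 and that with orexin B in Cy3 0.73. COL1A2 was then 0.59, DCN 0.073, LUM 0.44, SPARC 0.45, TNC 0.44, CD34 0.28, P4HA1 0.066, FKBP10 0.28, ASPN -0.27, VCAN 0.78, SDC4 -0.052, MGP 1.14, TNXB 0.23, FBN1 0.083, ITGA2 -0.022, ITGB8 -0.31, ITGB5 -0.36, TGFB3 0.10, CXCL12 0.28, CDH5 -0.098, PECAM1 -0.13, CNN1 0.63, MYLK 0.35, SMTN 0.59, AIF1 -0.024, ENTPD1 0.50, TPM1 0.41, PGLYRP2 0.33, RAB22A 0.44 and RARRES2 0.34. List medians were 0.16 for collagen processing, -0.052 for proteoglycans, 0.18 for glycoproteins, -0.16 for receptors, 0.28 for fibroblast and 0.61 for smooth muscle markers. With centring COL5A3 was -0.041 and the median of all genes -0.023, which was -0.00081 with no filter. The proteoglycan median was -0.18 with the strict filter, KRT8 0.18 with Agilent's processed ratio and the series table, COL5A3 -0.020 with the slide block and COL5A2 -0.030 with the mean of its probes. Leaving out 1 array, ranges crossing 0 were COL5A3 -0.049 to 0.063, TNC -0.30 to 0.19, VCAN -0.76 to 0.18, ITGB5 -0.059 to 0.35, CLDN3 -0.91 to 0.041, KRT8 -0.57 to 0.15 and EPCAM -0.90 to 0.36. The collagen processing median ran from -0.084 to 0.043 leaving out 1 array (0.039 without replicate 4), and without replicate 3 the epithelium median was 0.15. Every ratio is a difference within an array's pair of RNAs, so the analysis is paired by array throughout. Probes not well above background limit CD34 and LUM to the brighter probes.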

Other observations

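Levels of the matrix genes also differed between arrays. For the brightest probe of DCN the scaled log2 level of both channels together spanned 0.37 over the 4 arrays, where the median range of all tested probes was 0.50. For COL1A2 it spanned 0.99 and for LUM 0.79, and 86.5% and 76.4% of tested probes had a smaller range. For the brighter TNC probe it spanned 2.47 and for the other 1.57, and 99.3% and 96.4% of tested probes had a smaller range. The fifth SPARC probe in brightness spanned 1.71, while its brightest probe spanned 0.74.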
